A study of Mus musculus with 24 samples.

Results

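The open chromatin of 9 integrin genes was followed in macrophages grown from mouse bone marrow: Itgax, Itgam, Itgal, Itgav, Itga4, Itga6, Itgb1, Itgb2 and Itgb5. The assay was ATAC-seq, in which the Tn5 transposase cuts and tags accessible DNA, so that the number of reads in a peak measures how open that stretch was. A peak was taken as a member when the authors' deposited table of differential peaks gave it 1 of these genes, or, where it had no row there, when 1 of them had the nearest listed transcription start site (TSS) within 50 kb of its middle. This gave 139 of 144411 peaks, 82 from the deposited table and 57 by nearest TSS, and 71 of the 139 lay inside their gene. Itgb1 had 24 peaks, Itga4 22, Itgax and Itgb5 17 each, Itgav 16, Itga6 and Itgam 14 each, Itgal 9 and Itgb2 6. Which gene a peak acts on cannot be read from the nearest start. The limit of 50 kb cut through the Itgb5 locus, where the member farthest inside it lay at 48.7 kb with a mean of 1.07 CPM over all libraries (counts scaled to a common library size), and the first peak outside it at 53.6 kb with 1.33 CPM. Farther out, at 62.3 kb, a peak with a mean of 28.3 CPM was left out too, so the Itgb5 counts and sums below do not hold it.

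The cells came from male C57BL/6 mice aged 8 to 10 weeks and were differentiated for 5 days with L-cell conditioned medium, a source of macrophage growth factor. KO cells were GRIP1fl/fl and WT cells GRIP1wt/wt. Both were LysM-Cre+/+, a genotype in which the recombinase is made in cells of the myeloid lineage. The gene Ncoa2 encodes GRIP1, a coactivator that works with the glucocorticoid receptor. Cells of each genotype were given interleukin 4 (IL4, 10 ng/ml), dexamethasone (Dex, a synthetic glucocorticoid, 100 nM) or vehicle, for 24 h by the titles, although vehicle is labelled 25 h in the treatment field. The 6 groups have 4 libraries each, 24 in all. Whether replicates were separate animals or separate cultures is not in the labels, and p-values therefore cover a spread between libraries that may be technical.

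Integrins are adhesion receptors made of an alpha and a beta chain, and the pairing decides the ligand. Itgal (CD11a), Itgam (CD11b) and Itgax (CD11c) encode leukocyte alpha chains that all pair with the beta chain of Itgb2 (CD18), bind ICAM-1 or complement fragments, and carry leukocyte arrest, phagocytosis and cell contact. Itga4 with Itgb1 forms VLA-4, a receptor for VCAM-1 and fibronectin, Itga6 with Itgb1 binds laminin, and Itgav with Itgb5 binds vitronectin and takes part in the uptake of dying cells. CD11b is present on nearly all macrophages, whereas CD11c is best known from dendritic cells and some tissue macrophages.

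Itgax and Itgam stand next to each other on chromosome 7 and encode alpha chains for the same beta chain. The Itgax promoter peak rose with IL4 while that of Itgam was not called, so the 250 bases before each RefSeq start are shown, on the plus strand, 5′ to 3′, from the RefSeq promoter table of GRCm38.p6, which covers 6 of the 9 genes. Capitals mark matches to the motifs searched on both strands: the STAT6 palindrome TTCNNNNGAA, the glucocorticoid response element ACANNNTGT, the AP-1 heptamer TGANTCA and the PU.1 core GAGGAA, the last of which was added after values were seen. The Itgax stretch is chr7:128129300-128129549 and the Itgam stretch is chr7:128062390-128062639.
Itgax promoter: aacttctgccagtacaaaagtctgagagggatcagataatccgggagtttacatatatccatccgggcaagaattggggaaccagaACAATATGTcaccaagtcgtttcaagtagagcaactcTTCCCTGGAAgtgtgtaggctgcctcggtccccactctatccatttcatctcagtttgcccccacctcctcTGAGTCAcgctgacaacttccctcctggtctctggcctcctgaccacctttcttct
Itgam promoter: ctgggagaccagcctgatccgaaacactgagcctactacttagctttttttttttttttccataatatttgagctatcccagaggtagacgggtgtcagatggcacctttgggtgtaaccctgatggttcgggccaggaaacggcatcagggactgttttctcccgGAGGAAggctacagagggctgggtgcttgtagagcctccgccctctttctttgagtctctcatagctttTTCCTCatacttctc
The Itgax promoter held 1 STAT6 palindrome at -127, 1 glucocorticoid response element at -164 and 1 AP-1 heptamer at -56, counted from the RefSeq start, and none of these overlap. The Itgam promoter held 2 PU.1 cores, at -84 and -15, and no match to the other motifs. Among the other promoters covered, Itgav held 2 PU.1 cores and Itgb1 held 1, with no match to the other motifs. Those of Itga4 and Itgb5 held no match to any. Over 32851 promoter windows of the same length, 5.85% held the STAT6 palindrome, 5.84% the glucocorticoid response element, 6.75% the AP-1 heptamer and 23.3% the PU.1 core. A match describes letters only and shows no binding.

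Library totals ran from 5820149 to 21939330 reads in peaks, and 128 of the 139 member peaks passed the filter on low counts, which removed 3 peaks of Itgax, 3 of Itgam, 2 of Itgb1 and 1 each of Itga4, Itga6 and Itgb5. Levels are CPM scaled by TMM factors, changes are log2 fold changes with their standard error (SE), and called peaks are those whose adjusted p was below 0.05 among 130103 tested. Treatment checks at genes that are not members were read at the peak of lowest p of each gene, a choice that favours a high value. A peak of Fkbp5, a glucocorticoid target, had a log2 fold change with Dex of 3.15 in KO and 3.51 in WT. One of Cish, an IL4 target, had 3.27 in KO and 3.38 in WT with IL4. Of 28 tested Fkbp5 peaks 15 were called with Dex in KO and 19 in WT, 1 of the latter lower. Of 5 tested Cish peaks 4 were called with IL4 in each genotype, none lower. The labels do not say which stretch of Ncoa2 was deleted, so that its peaks are no check of the deletion. Of 21 tested peaks assigned to Ncoa2, 2 were called in KO against WT with vehicle, 3 with Dex and 5 with IL4, 1 of them higher and the others lower each time. The one higher, at -49.7 kb, had 6.59 to 9.03 CPM in KO vehicle, against 0.614 to 1.34 CPM in WT vehicle, and its log2 fold change was 2.96 with vehicle, 2.43 with Dex and 2.60 with IL4. WT Dex replicate 2 stood apart: it was the shallowest library, 2.57% of its peaks held no read, beside at most 0.862% in any other, and its score on the fourth principal component was -127, beside 29.4 to 44.6 in the other WT Dex libraries. All 7 macrophage markers had a peak within 1 kb of their TSS, and 1 of 7 T and NK cell markers did, with 0.592 to 2.11 CPM, while 5 of 8 neutrophil markers did, with sums of 40.2 to 61.2 CPM. The 7 macrophage markers summed to 184 to 191 CPM in KO IL4, 220 to 259 in KO Dex, 214 to 236 in KO vehicle, 182 to 193 in WT IL4, 249 to 268 in WT Dex and 220 to 238 in WT vehicle, so this sum was lower in every IL4 library than in any other. Against vehicle, mean Mertk was higher with IL4, at 36.1 against 31.7 CPM in KO and 35.0 against 32.5 CPM in WT, and the other markers were lower. All tested peaks of at least 20 CPM had a median log2 fold change with IL4 of -0.18 in KO and -0.22 in WT. The 2 of 6 fibroblast markers with such a peak, Pdgfrb and Twist1, summed to 8.37 to 10.4 CPM in KO IL4 against 5.39 to 8.24 in KO vehicle, and to 7.78 to 9.50 CPM in WT IL4 against 5.34 to 7.42 in WT vehicle. This sum was higher with IL4 without overlap, but the 2 markers did not move together in WT. Pdgfrb averaged 5.4 CPM in KO IL4 against 3.43 in KO vehicle, and 5.86 in WT IL4 against 2.67 in WT vehicle. Twist1 averaged 3.7 CPM in KO IL4 against 3.25 in KO vehicle, and 2.56 in WT IL4 against 3.49 in WT vehicle. Col1a1, Col1a2, Pdgfra and Dcn had no peak within 1 kb. The 3 of 6 B cell markers with a peak summed to 5.82 to 7.61 CPM in KO IL4 against 8.33 to 9.81 in KO vehicle, and to 5.22 to 8.77 CPM in WT IL4 against 8.22 to 9.61 in WT vehicle, which was lower with IL4, with overlap in WT. The part of these markers in the IL4 results was not tested. In bulk cells, a change in the share of cells that are open at a site and a change in openness per cell cannot be told apart.

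IL4 opened Itgax chromatin strongly in both genotypes and raised Itgb2 slightly. At Itgam 3 peaks were called lower in KO and 5 in WT under TMM scaling, counts that changed with the processing. In KO cells 38 of 128 member peaks were called with IL4 against vehicle, 19 higher and 19 lower, which is 29.7% where 31.0% of all tested peaks were called, 17.0% higher and 13.9% lower. In WT cells 44 were called, 26 higher and 18 lower, or 34.4% of members beside 35.4% of all tested peaks, 19.3% higher and 16.1% lower. The 9 genes as a group were therefore called about as often as any peak, and the median log2 fold change over their tested peaks was -0.04 in KO and -0.01 in WT. Among the called member peaks 9 rose at least 2-fold in KO and 8 in WT, and 1 fell that far in each genotype, the same Itgal peak. The share of all tested peaks that changed this far was not counted, so these numbers cannot be read as particular to the 9 genes. The split in KO depended on the processing. It was 21 higher and 10 lower with library totals, and 22 and 11 with loess offsets. DESeq2, which changes the test as well as the scaling, gave 18 higher and 9 lower.

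**Figure D1:**
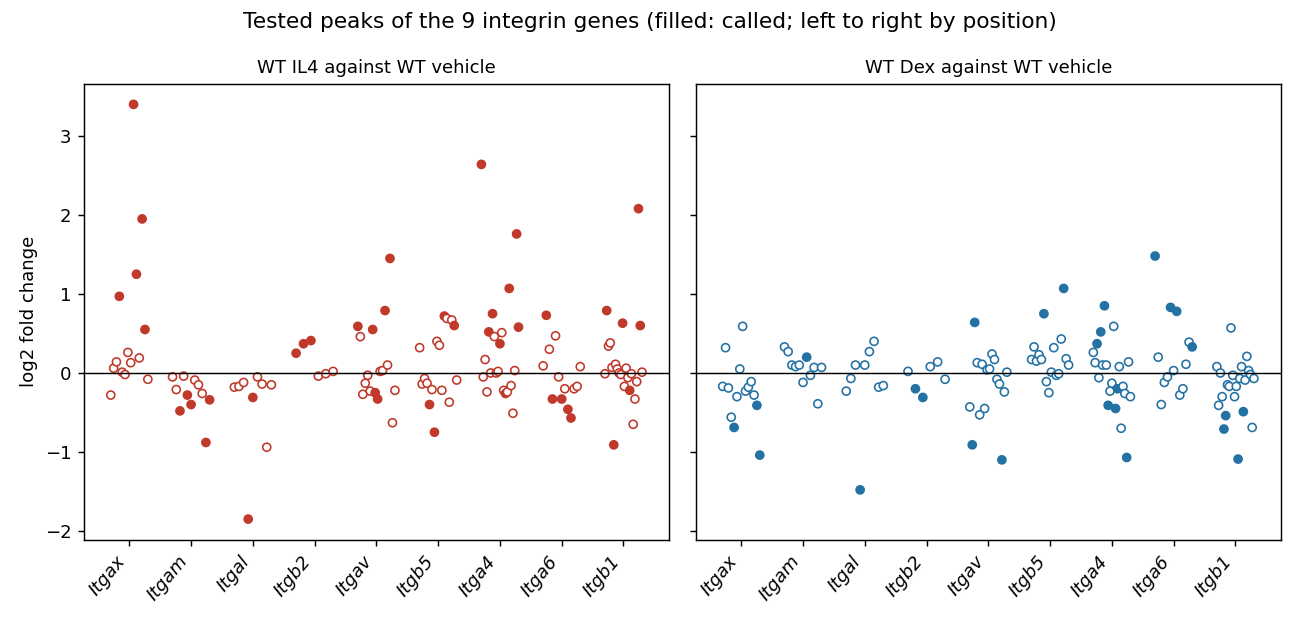
Log2 fold change against vehicle of the tested member peaks by gene, in WT cells, with IL4 in the left panel and Dex in the right. Filled points were called and hollow points were not, and the peaks of a gene run from left to right by position. Itgax holds the highest IL4 point, at 3.40 in WT, ahead of single points of Itga4 at 2.64 and Itgb1 at 2.08. The Itgax Dex points stay at or below 0.59.

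Itgax, which encodes CD11c, had the highest IL4 response of the 9 genes. Summed over its peaks, KO libraries with IL4 held 139, 142, 130 and 128 CPM, and KO vehicle libraries 78.3, 70.8, 66.6 and 65.3. WT libraries with IL4 held 126, 146, 144 and 133 CPM, and WT vehicle libraries 66.1, 77.9, 72.4 and 70.4. Every IL4 library lay above every vehicle library in both genotypes. The rise came from few of the 14 tested peaks: 5 rose in KO and 5 in WT, and none fell in either, while 9 were not called in each.

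The peak 7.7 kb before the start, chr7:128121453-128122280, lies between Itgam and Itgax and changed most. KO libraries with IL4 had 18.6, 23.3, 16.8 and 17.8 CPM, against 3.36, 2.13, 3.01 and 2.47 CPM in KO vehicle. WT libraries with IL4 had 17.8, 23.1, 22.9 and 20.3 CPM, against 1.61, 2.35, 1.82 and 2.27 CPM in WT vehicle. The groups were far apart, with 190 to 308 reads per KO library and 215 to 394 per WT library under IL4, against 23 to 30 in KO vehicle and 17 to 22 in WT vehicle. The rise was 7.23-fold in KO (log2 2.85 ± 0.14 SE, adjusted p = 8.02e-31) and 10.6-fold in WT (log2 3.40 ± 0.15 SE, adjusted p = 3.35e-35). The difference between the genotypes in this change was -0.55 ± 0.24 SE on the log2 scale and was not called (adjusted p = 1).

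The promoter peak, chr7:128128893-128129736, covers the whole Itgax sequence printed above. It had 43.5, 45.2, 39.9 and 39.7 CPM in KO IL4, against 18.6, 16.8, 17.4 and 13.7 CPM in KO vehicle. It had 40.8, 45.8, 45.3 and 41.0 CPM in WT IL4, against 15.7, 21.7, 20.1 and 16.2 CPM in WT vehicle. The IL4 libraries of both genotypes lay together at the top and did not overlap the vehicle libraries. The log2 fold change was 1.35 ± 0.09 SE in KO (adjusted p = 1.40e-23) and 1.25 ± 0.09 SE in WT (adjusted p = 2.04e-22).

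Inside the gene, the +7.7 kb peak, chr7:128137010-128137465, had 19.4, 20.0, 17.6 and 18.0 CPM in KO IL4, against 8.08, 4.90, 4.84 and 4.58 CPM in KO vehicle. In WT it had 18.6, 21.5, 22.0 and 18.5 CPM with IL4, against 3.92, 4.69, 6.09 and 6.49 CPM with vehicle. KO vehicle replicate 1 stood apart at 8.08 CPM and was still below every IL4 library. The log2 fold change was 1.78 ± 0.13 SE in KO (adjusted p = 1.04e-19) and 1.95 ± 0.13 SE in WT (adjusted p = 3.49e-22). The neighbouring +9.0 kb peak rose less, with 12.2 ± 1.10 CPM in KO IL4 against 8.27 ± 0.855 CPM in KO vehicle, and 11.9 ± 1.48 CPM in WT IL4 against 8.26 ± 1.13 CPM in WT vehicle (mean ± SD, n = 4). Its log2 fold change was 0.56 in KO (adjusted p = 8.52e-05) and 0.55 in WT (adjusted p = 7.62e-05). The +4.2 kb peak was called in KO, where its log2 fold change was 0.30 (adjusted p = 0.00846), while in WT it was 0.19 (adjusted p = 0.0959); the KO call was lost without KO vehicle replicate 3.

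**Figure D2:**
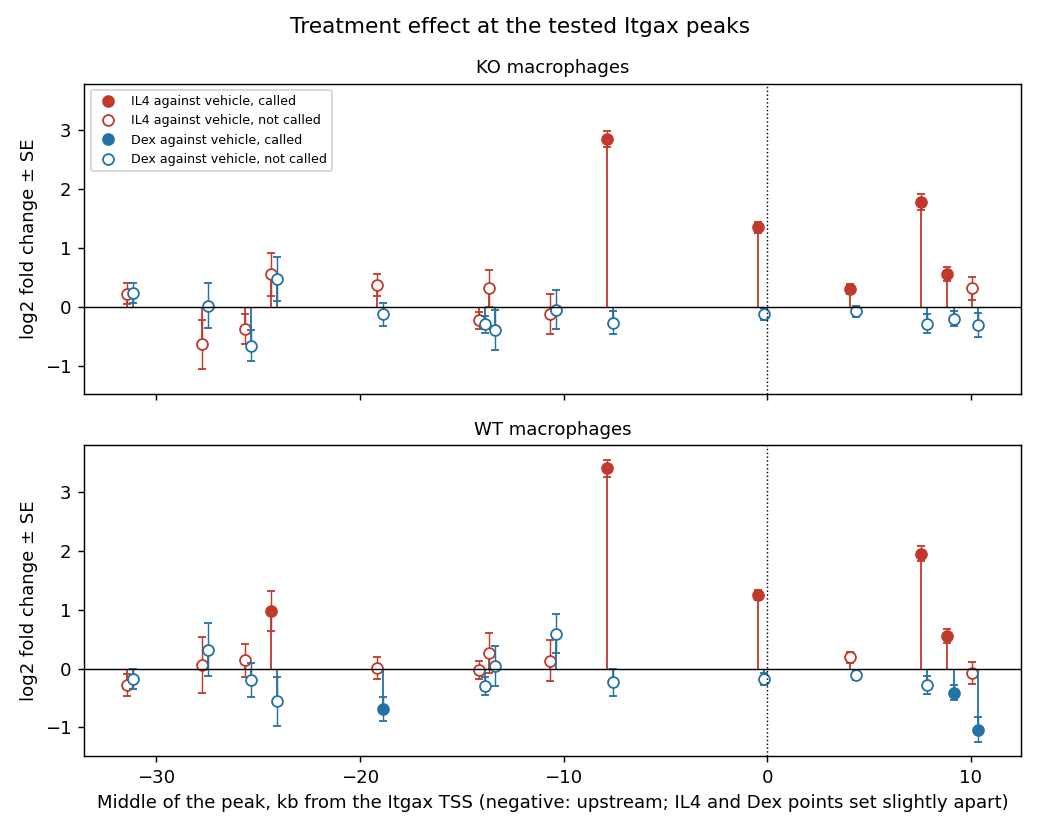
Log2 fold change against vehicle (± SE) of the tested Itgax peaks by distance from the Itgax start in kb, with KO in the upper panel, WT in the lower, IL4 in red, Dex in blue and called peaks filled. The -7.7 kb, promoter and +7.7 kb peaks stand out under IL4 in both genotypes, and no Dex point in KO is filled.

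Of the other Itgax peaks, 7 lie inside Itgam, whose end faces the start of Itgax, and were given to Itgax by its nearer start. Among these 7, the -24.2 kb peak was called with IL4 in WT, where it had 1.90, 1.40, 2.14 and 0.745 CPM with IL4, against 0.768, 0.559, 0.534 and 1.24 CPM with vehicle. The groups overlapped, since WT vehicle replicate 4 lay above WT IL4 replicate 4. Its log2 fold change of 0.97 in WT (adjusted p = 0.0172) was not called without WT IL4 replicate 1 or 3 or without WT vehicle replicate 2 or 3, and rested on 8 to 24 reads per IL4 library. In KO it was 0.55 (adjusted p = 0.28), and the difference between genotypes was not called (-0.41 ± 0.52 SE, adjusted p = 1). The other Itgax peaks not called with IL4 had log2 fold changes from -0.64 to 0.37 in KO and from -0.28 to 0.26 in WT. Dendritic cells also carry CD11c, and the 4 of 7 dendritic cell markers with a promoter peak summed to 24.4 to 29.5 CPM in KO IL4 and 26.7 to 30.9 CPM in KO vehicle, and to 24.6 to 28.3 CPM in WT IL4 and 27.7 to 30.4 CPM in WT vehicle. Of that list Xcr1, Clec9a and Ccr7 had no peak within 1 kb of their TSS, and Cd209a averaged 0.946 CPM in KO IL4 against 0.572 in KO vehicle, and 0.745 in WT IL4 against 0.60 in WT vehicle. Most of each sum came from Zbtb46, which averaged 19.3 CPM in KO IL4 and 20.2 in KO vehicle, and 20.4 in WT IL4 and 21.5 in WT vehicle. The part of dendritic cells in the Itgax rise was not tested.

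**Figure D3:**
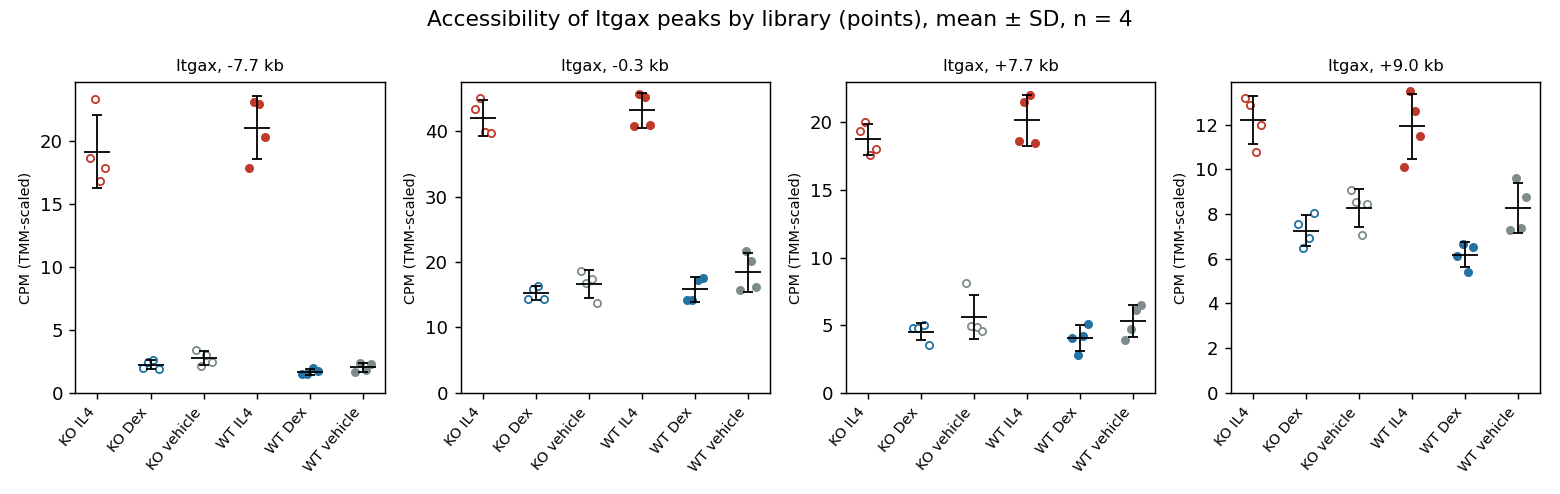
CPM per library at the main Itgax peaks for KO IL4, KO Dex, KO vehicle, WT IL4, WT Dex and WT vehicle, with hollow points for KO and filled points for WT. At the -7.7 kb peak the IL4 libraries lie between 16.8 and 23.3 CPM and all others between 1.48 and 3.36 CPM.

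Itgb2, the beta chain that CD11a, CD11b and CD11c share, moved with Itgax under IL4, by much less. Of its 6 peaks 3 rose in KO and 3 rose in WT. The -1.0 kb peak, which lies inside the gene because the listed start is an internal one, had 23.5, 23.4, 22.4 and 23.2 CPM in KO IL4, against 16.8, 15.5, 16.7 and 18.6 CPM in KO vehicle. In WT it had 22.4, 22.1, 20.8 and 23.2 CPM with IL4, against 16.4, 18.6, 16.8 and 15.1 CPM with vehicle. All IL4 libraries were higher than all vehicle libraries, at log2 0.45 ± 0.09 SE in KO (adjusted p = 5.61e-05) and 0.41 ± 0.09 SE in WT (adjusted p = 0.000236). The -4.9 kb peak had log2 fold changes of 0.42 in KO and 0.37 in WT. The -10.8 kb peak, chr10:77530049-77532160, which covers the RefSeq start of the gene and was picked out after values were seen, had 0.28 in KO and 0.25 in WT, and the WT call was lost without WT vehicle replicate 1 (log2 0.17).

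Itgam, which encodes CD11b, had no peak that rose with IL4 under TMM scaling. Its promoter peak held 40.1, 46.3, 42.2 and 42.9 CPM in KO IL4, against 38.2, 43.5, 41.9 and 47.7 CPM in KO vehicle. In WT it held 39.0, 44.0, 42.7 and 44.1 CPM with IL4, against 45.7, 45.0, 47.5 and 42.2 CPM with vehicle. The groups overlapped in both genotypes, and the log2 fold change was -0.00 ± 0.07 SE in KO (adjusted p = 0.99) and -0.09 ± 0.07 SE in WT (adjusted p = 0.365). With loess offsets the promoter value in KO was 0.16 and called as higher (adjusted p = 0.0268), and in WT it was 0.12 and not called. Of the 11 tested Itgam peaks 3 fell in KO and 5 fell in WT, while DESeq2 and library totals each gave 2 in KO and 3 in WT, and loess offsets 1 in KO and 5 in WT. The -11.7 kb peak had 36.0, 36.3, 37.3 and 35.6 CPM in WT IL4, against 48.9, 48.8, 58.8 and 46.9 CPM in WT vehicle, and fell by 0.48 ± 0.07 SE on the log2 scale (adjusted p = 9.51e-08). In KO the same peak had 38.2, 41.2, 35.0 and 42.1 CPM with IL4, against 40.8, 44.1, 41.1 and 43.6 CPM with vehicle, and was not called (log2 -0.12, adjusted p = 0.249). The difference between genotypes was 0.37 ± 0.11 SE and was not called either (adjusted p = 1).

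Itgal, which encodes CD11a, lost openness at a small peak of 148 bases, 3.0 kb before its start, under both treatments. It had 0.959, 0.529, 0.796 and 0.156 CPM in KO IL4, 0.696, 1.10, 1.49 and 1.18 in KO Dex and 2.73, 3.97, 2.22 and 3.57 in KO vehicle. It had 1.16, 0.761, 1.02 and 0.745 CPM in WT IL4, 0.915, 1.48, 1.56 and 1.03 in WT Dex and 4.99, 3.35, 1.92 and 2.47 in WT vehicle. No treated library reached the lowest vehicle library of its genotype. With IL4 the log2 fold change was -2.45 ± 0.31 SE in KO (adjusted p = 6.25e-10) and -1.85 ± 0.28 SE in WT (adjusted p = 6.74e-08). With Dex it was -1.50 ± 0.26 SE in KO (adjusted p = 9.12e-06) and -1.48 ± 0.26 SE in WT (adjusted p = 9.77e-06). The peak is thin, with 2 to 14 reads per library under IL4.

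The vitronectin receptor chain Itgav had 1 peak that the treatments moved in opposite directions. At +30.0 kb, chr2:83754122-83754748 inside the gene, KO libraries had 10.5, 9.07, 8.32 and 7.67 CPM with IL4, 1.29, 2.06, 1.57 and 1.90 with Dex and 6.22, 3.41, 3.40 and 4.03 with vehicle. WT libraries had 11.3, 10.3, 13.3 and 7.64 CPM with IL4, 2.25, 0.923, 1.81 and 1.73 with Dex and 5.15, 3.69, 3.74 and 2.58 with vehicle. In each genotype the IL4 libraries were the highest, the Dex libraries the lowest and the vehicle libraries in between, with no overlap. The log2 fold change with IL4 was 1.09 ± 0.17 SE in KO and 1.45 ± 0.17 SE in WT, and with Dex it was -1.25 ± 0.22 SE in KO and -1.10 ± 0.23 SE in WT, all called. IL4 against Dex in WT gave 2.55 ± 0.18 SE (adjusted p = 3.70e-18), or 5.87-fold. Of the 16 tested Itgav peaks, IL4 raised 3 and lowered 3 in KO, and raised 4 and lowered 2 in WT.

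The chains of VLA-4 and the laminin receptor had mixed changes with IL4. Of 21 tested Itga4 peaks 4 rose and 2 fell in KO, and 7 rose and 1 fell in WT. The peak of largest rise in WT was a distal one at -185.9 kb, with 1.06, 2.04, 1.50 and 2.27 CPM in KO IL4, against 0.870, 0.710, 0.262 and 0.458 CPM in KO vehicle. In WT this peak had 2.48, 1.81, 2.55 and 2.05 CPM with IL4, against 0.230, 0.224, 0.534 and 0.412 CPM with vehicle. The groups did not overlap in either genotype, at log2 1.55 ± 0.33 SE in KO (adjusted p = 0.00011) and 2.64 ± 0.36 SE in WT (adjusted p = 2.06e-09), with 2 to 10 reads per vehicle library of KO and 2 to 5 of WT. In KO the +6.8 kb peak, named after its values were seen, had a larger log2 fold change of 1.66, and 1.07 in WT. Itga6 had 1 peak raised and 3 lowered in KO and 1 raised and 4 lowered in WT, and the raised peak at -30.8 kb had log2 fold changes of 0.43 in KO and 0.73 in WT. Itgb1, the beta chain of both, had 2 raised and 1 lowered of 22 peaks in KO, and 4 raised and 2 lowered in WT. Its -79.9 kb peak fell with IL4 by 0.88 in KO and by 0.91 in WT on the log2 scale. Its internal peak chr8:128718175-128718372, picked out after values were seen, rose by 1.52 in KO and 2.08 in WT. Itgb5 had 1 raised and 3 lowered of 16 peaks in KO, and 2 raised and 2 lowered in WT.

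With IL4 the promoter peaks of 5 genes fell slightly in WT, and at 4 of them the call depended on the scaling, while the peak over the Itgb2 start rose and those of Itgam and Itgb5 were not called in either genotype (Itgb5 -0.20 in KO and -0.07 in WT). In WT the log2 fold change was -0.26 at Itga4, -0.31 at Itgal, -0.25 at Itgav, -0.22 at Itgb1 and -0.33 at Itga6, all called, while in KO it was called at Itgal (-0.24) and Itga6 (-0.28) and not at Itga4 (-0.17), Itgav (-0.17) or Itgb1 (-0.16). Offsets fitted by loess to take out a trend with abundance gave WT values of -0.01 at Itga4, -0.14 at Itgal, -0.05 at Itgav and 0.00 at Itgb1, and none of these 4 was called, while the Itga6 value was -0.20 and was still called. Before that correction the 12734 tested peaks with a mean of at least 20 CPM had a median log2 fold change with IL4 of -0.18 in KO and -0.22 in WT, and after it of -0.03 in KO and -0.02 in WT, while the median of all tested peaks stayed between -0.04 and -0.01. The Itgax promoter rose under the same offsets, at log2 1.39 in WT.

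Dex did not move the Itgax promoter past the threshold in either genotype. In KO cells 18 of 128 member peaks were called with Dex against vehicle, 8 higher and 10 lower, or 14.1% beside 13.6% of all tested peaks, 6.97% higher and 6.63% lower. The same comparison in WT called 27, 11 higher and 16 lower, or 21.1% beside 16.6% of all tested peaks, 8.56% higher and 8.08% lower. Without WT Dex replicate 2 the count was 26, 10 higher and 16 lower. With library totals in place of TMM factors the KO split was 7 higher and 14 lower. No Itgax peak was called in KO (edgeR, 0 of 14), and 3 of 14 fell in WT. At the promoter, KO libraries had 14.4, 15.9, 16.4 and 14.3 CPM with Dex, against 18.6, 16.8, 17.4 and 13.7 CPM with vehicle (log2 -0.12, adjusted p = 0.491). WT libraries had 14.2, 14.2, 17.3 and 17.6 CPM with Dex, against 15.7, 21.7, 20.1 and 16.2 CPM with vehicle (log2 -0.18, adjusted p = 0.211). The groups overlapped in both genotypes.

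The 3 Itgax peaks that fell with Dex in WT were at +10.2, +9.0 and -19.0 kb. The +10.2 kb peak had 1.69, 1.48, 2.22 and 1.21 CPM in WT Dex, against 2.53, 3.69, 3.74 and 3.61 CPM in WT vehicle, without overlap (log2 -1.04 ± 0.21 SE, adjusted p = 0.000111). In KO this peak had 1.59, 2.82, 2.28 and 1.84 CPM with Dex, against 2.36, 3.34, 2.09 and 2.57 CPM with vehicle, which overlapped (log2 -0.31, adjusted p = 0.357). The difference between genotypes was 0.73 ± 0.30 SE and was not called (adjusted p = 1). The +9.0 kb peak fell by 0.41 (adjusted p = 0.0172), a call lost without WT Dex replicate 3 or WT vehicle replicate 2 or 4. The -19.0 kb peak fell by 0.69 (adjusted p = 0.00683), a call lost without WT vehicle replicate 1.

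The clearest Dex gains among the members were at Itgb5 and Itga6. The Itgb5 peak at +7.4 kb, chr16:33836489-33837603, had 32.3, 34.3, 34.0 and 32.2 CPM in KO Dex, against 24.7, 27.7, 27.3 and 21.1 CPM in KO vehicle. In WT it had 29.5, 39.3, 38.2 and 36.5 CPM with Dex, against 19.0, 24.1, 21.6 and 20.4 CPM with vehicle. All Dex libraries were above all vehicle libraries, at log2 0.40 ± 0.09 SE in KO (adjusted p = 0.000465) and 0.75 ± 0.09 SE in WT (adjusted p = 2.91e-10), and the difference between genotypes of -0.35 ± 0.12 SE was not called (adjusted p = 1). A second Itgb5 peak, at +50.0 kb, rose by 1.29 in KO and 1.07 in WT. Summed over its member peaks Itgb5 held 96.0 to 105 CPM in KO Dex, 77.9 to 91.2 in KO vehicle, 89.7 to 113 in WT Dex and 71.0 to 82.4 in WT vehicle. With IL4 the +7.4 kb peak fell by 0.34 in KO (adjusted p = 0.00285), a call lost with loess offsets, and was not called in WT (log2 -0.21, adjusted p = 0.0714).

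The Itga6 peak at -33.6 kb had 3.68, 3.16, 3.70 and 3.38 CPM in KO Dex, against 2.49, 1.35, 1.96 and 1.83 CPM in KO vehicle. In WT it had 4.15, 2.95, 3.69 and 3.36 CPM with Dex, against 1.92, 0.671, 1.07 and 1.24 CPM with vehicle. The groups did not overlap, at log2 0.91 ± 0.21 SE in KO (adjusted p = 0.000853) and 1.48 ± 0.23 SE in WT (adjusted p = 2.28e-07). IL4 did not move this peak past the threshold, at -0.26 in KO and 0.09 in WT. Of the 13 tested Itga6 peaks Dex raised 2 and lowered 1 in KO, and raised 4 and lowered 0 in WT.

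Itgb1 lost openness with Dex at -18.8 kb, chr8:128666555-128667212. KO libraries had 6.27, 4.95, 4.72 and 3.55 CPM with Dex, against 10.8, 10.4, 8.50 and 8.07 CPM with vehicle. WT libraries had 3.94, 3.14, 4.68 and 6.07 CPM with Dex, against 9.60, 8.72, 11.4 and 11 CPM with vehicle. Dex libraries were lower throughout, by log2 -1.0 ± 0.14 SE in KO (adjusted p = 3.35e-08) and -1.09 ± 0.14 SE in WT (adjusted p = 1.20e-09), and with IL4 the peak was not called (-0.14 in KO, 0.06 in WT). The -79.9 kb peak of Itgb1 fell with Dex too, by 0.53 in KO and 0.54 in WT. At Itga4 the -61.4 kb peak rose with both treatments, with Dex by 0.79 in KO and 0.85 in WT and with IL4 by 0.75 in each. Itgam rose with Dex at its promoter in WT by 0.20 (adjusted p = 0.0407), a call lost in 8 of 13 alternatives, and 2 Itgb2 peaks fell in WT by 0.20 and 0.31, calls lost in 7 and 4 of 13.

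**Figure D4:**
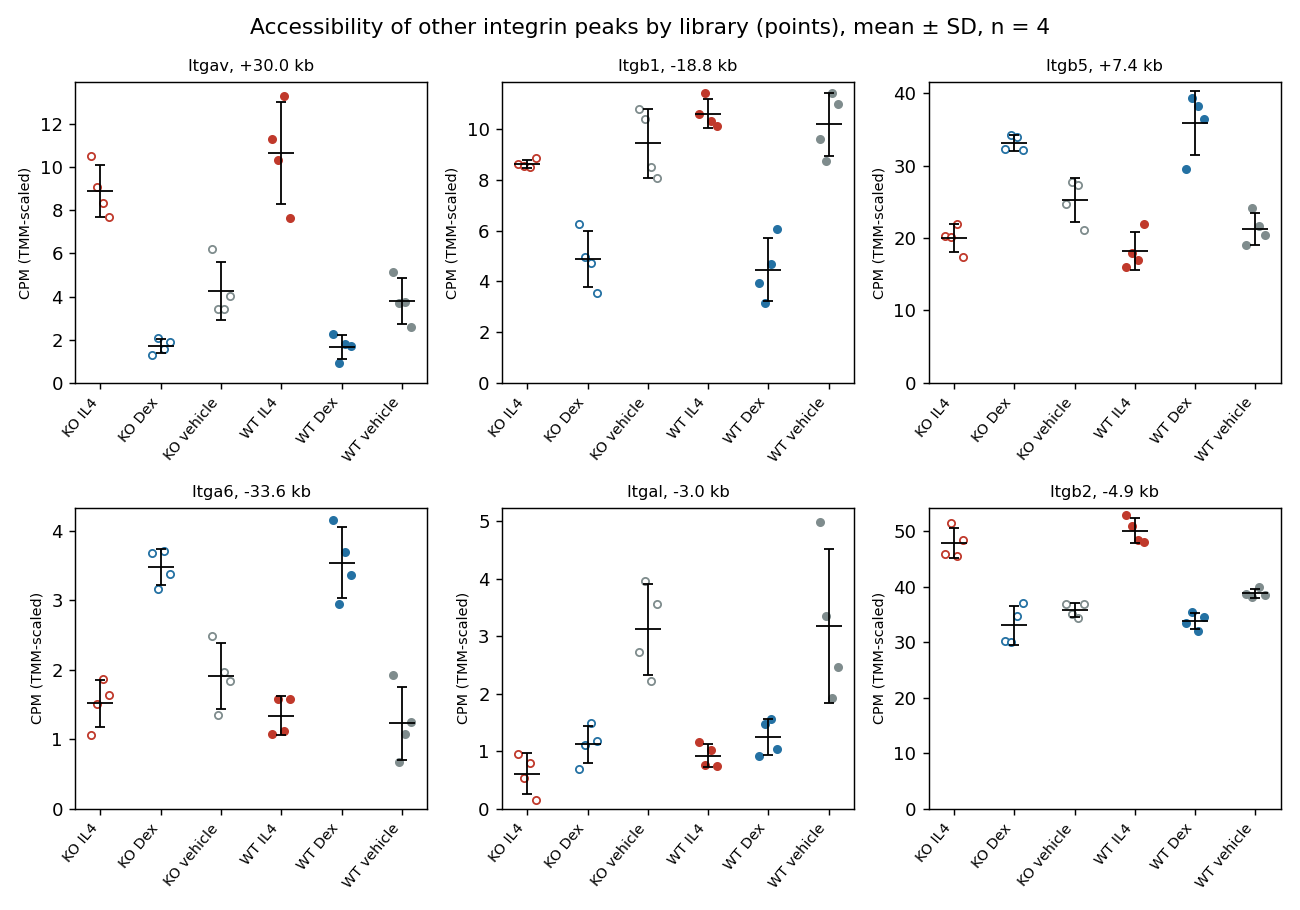
CPM per library at the leading peaks of the other integrin genes for KO IL4, KO Dex, KO vehicle, WT IL4, WT Dex and WT vehicle, with hollow points for KO and filled points for WT. The Itgav +30.0 kb peak is highest with IL4 and lowest with Dex in both genotypes, and the Itgb5 +7.4 kb peak is highest with Dex.

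Set directly against Dex in WT cells, IL4 gave more calls at these genes than either treatment against vehicle. Of 128 member peaks 70 were called, 38 higher and 32 lower with IL4, or 54.7% beside 45.1% of all tested peaks, 23.4% higher and 21.7% lower. With library totals the split of the members was 40 and 21, and without WT Dex replicate 2 it was 37 and 26. The median log2 fold change over the members was -0.09. Itgax had 8 of 14 peaks higher and none lower, Itgb2 3 of 6 higher and none lower, and Itgam none higher and 6 of 11 lower. Itgb5 had 3 higher and 8 lower of 16. Under TMM scaling the tested peaks with a mean of at least 20 CPM had a median log2 fold change of -0.31 in this comparison. With loess offsets that median was -0.03. The Itgam median was -0.38 under TMM scaling. Loess offsets turned the sign at the Itga4, Itgam, Itgav and Itgb1 promoter peaks. The part of this trend with abundance in the lower counts was not tested. At the Itgax -7.7 kb peak, the WT IL4 libraries with 17.8 to 23.1 CPM stood against WT Dex libraries with 1.48, 1.48, 1.97 and 1.73 CPM, a log2 difference of 3.63 ± 0.15 SE (adjusted p = 1.91e-38). The IL4 and Dex comparisons with vehicle share the vehicle libraries.

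Few differences between KO and WT were called at the integrin genes. With vehicle no member peak was called in KO against WT by edgeR or DESeq2, where edgeR called 0.616% of all tested peaks, and 7 of 128 had an unadjusted p below 0.05. The share of all tested peaks below this unadjusted p was not counted, so such member counts have no background beside them. With Dex none was called by either tool, beside 0.953% of all tested peaks, and 11 had an unadjusted p below 0.05; without WT Dex replicate 2 edgeR called 1, lower in KO. With IL4 1 member peak was called, and it was lower in KO, beside 0.841% of all tested peaks called and 0.368% called lower. It was the Itga4 peak at +47.2 kb, chr2:79302481-79302703 inside the gene, with 1.53, 1.66, 1.77 and 1.41 CPM in KO IL4, against 3.89, 2.58, 2.24 and 3.63 CPM in WT IL4. The groups did not overlap, and KO was lower by log2 -0.94 ± 0.21 SE (adjusted p = 0.00452), a call lost without WT IL4 replicate 1 (adjusted p = 0.0738). The KO and WT vehicle libraries at this peak overlapped, with 2.11, 1.70, 1.70 and 1.28 CPM in KO and 2.30, 1.79, 2.14 and 1.86 CPM in WT.

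No member peak was called for a difference between genotypes in its response. In the Dex interaction edgeR and DESeq2 called 0 of 128, beside 0% of all tested peaks, with 7 at an unadjusted p below 0.05. In the IL4 interaction both called 0 of 128, beside 0.00231% of all tested peaks, with 11 at an unadjusted p below 0.05. The estimated differences over the members ran from -1.14 to 1.03 for Dex and from -1.09 to 1.32 for IL4 on the log2 scale. For the interactions too, the share of all tested peaks at an unadjusted p below 0.05 was not counted. A p above the threshold does not show that the responses were equal.

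Among peaks outside the 9 genes, those most like the Itgax -7.7 kb peak over the 24 libraries were assigned to Mcf2l (Pearson r = 0.993), Map2k5 (0.992), Cradd, Tpcn2 and Ier5l (0.991 each), from 71860 peaks compared on log2 CPM with a pseudocount of 0.5. These correlations rest largely on the IL4 libraries standing apart and are a description.

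Other integrin genes and their partners also changed with IL4. Of 177 tested peaks of 17 other integrin subunit genes, 43 rose and 14 fell with IL4 in KO and 61 rose and 21 fell in WT. In KO these are 24.3% higher and 7.91% lower, beside 17.0% and 13.9% of all tested peaks, and the 32.2% called in all was near the 31.0% over all peaks. In WT they are 34.5% higher and 11.9% lower, beside 19.3% and 16.1% of all tested peaks. Their median log2 fold change was 0.14 in KO and 0.15 in WT, beside medians over all tested peaks near 0. The largest rises in both genotypes were at Itgb3, a beta chain that pairs with the Itgav product, where the -8.2 kb peak had 4.06 ± 0.447 CPM in KO IL4 and 0.757 ± 0.113 CPM in KO vehicle, and 4.79 ± 0.825 CPM in WT IL4 and 0.541 ± 0.180 CPM in WT vehicle (mean ± SD, n = 4). Its log2 fold change was 2.40 in KO and 3.13 in WT. Peaks of Itgb6, 2.39 in KO and 3.07 in WT, and of Itga9, 2.08 in KO and 2.98 in WT, followed. With Dex 8 of the 177 rose and 13 fell in KO, and 11 rose and 12 fell in WT, which is 11.9% called in KO beside 13.6% of all tested peaks and 13.0% in WT beside 16.6%. A peak of Itgb3 at -5.9 kb fell with Dex by 0.97 in KO and 0.95 in WT.

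Of 411 tested peaks of 28 integrin activation and signalling genes, IL4 raised 71 and lowered 100 in KO, and raised 83 and lowered 103 in WT. The shares higher, 17.3% in KO and 20.2% in WT, were near the 17.0% and 19.3% over all tested peaks, and the shares lower were 24.3% in KO and 25.1% in WT, beside 13.9% and 16.1%. Ptk2, which encodes focal adhesion kinase, had a peak with log2 fold changes of 3.51 in KO and 3.36 in WT, and Itgb1bp1, a binding partner of the Itgb1 tail, had 3.10 in KO and 3.42 in WT. Vcl, which encodes vinculin, had a peak at +37.8 kb that fell with IL4, by 1.84 in KO and 2.81 in WT, and with Dex, by 2.34 in KO and 2.05 in WT. A peak of Syk, a kinase downstream of integrins, fell with Dex by 1.41 in KO and 1.42 in WT. Of 167 tested peaks of 17 integrin ligand genes, IL4 raised 44 and lowered 23 in KO, and raised 44 and lowered 27 in WT. The share higher was 26.3% in each genotype, beside 17.0% of all tested peaks in KO and 19.3% in WT, and the shares lower, 13.8% in KO and 16.2% in WT, were near the 13.9% and 16.1% over all peaks. Spp1, which encodes osteopontin, had 3.43 in KO and 3.48 in WT, and Mfge8, which bridges dying cells to integrins that hold the Itgav chain, had 2.27 in KO and 2.25 in WT. Vcam1, which encodes the ligand of VLA-4, had the strongest Dex rise of the ligand genes at -32.6 kb, with 25.6 ± 3.78 CPM in KO Dex and 6.75 ± 0.728 CPM in KO vehicle, and 29.0 ± 5.58 CPM in WT Dex and 7.12 ± 0.685 CPM in WT vehicle, a log2 fold change of 1.92 in KO and 1.99 in WT.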

How the data were processed

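ATAC-seq libraries of mouse bone marrow-derived macrophages were analysed from the peak counts that the authors deposited, as whole-number read counts without normalisation. The authors' deposited table of log2 fold changes and p-values was read for its gene names and distances to the TSS only, and the F statistic it gives per comparison, a score computed by the authors, was not used. Bowtie2, fastp, SAMtools, featureCounts, MACS2 and edgeR, and the mm10 build, are listed in the submitters' processing notes. Their roles, and how peaks were pooled, are not given in the sources used here.

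Peaks were filtered with filterByExpr, scaled by TMM factors (0.935 to 1.07) and tested in R 4.3.3 with edgeR 4.0.16: 1 robust quasi-likelihood fit of 6 group means over 24 libraries, an F test for each of 10 comparisons, and Benjamini-Hochberg adjustment over 130103 tested peaks. The SE is the size of the log2 fold change over the square root of F. The fit was also run on simulated counts, drawn independently for each library. That run does not cover correlation between libraries, and no result here rests on it. Library totals ran from 5820149 to 21939330 reads, and reads are not independent molecules, so a low count limits precision.

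Members and gene lists were chosen with earlier results of these data known. Named peaks are the promoter peak of each gene, its called peak of lowest p with IL4 or Dex in WT, and all tested Itgax peaks. Alternatives were DESeq2 1.42.0, library totals, loess offsets, no filter, members of the authors' table alone, a replicate block and leaving out each library. Distances run to the nearest listed start, of which a gene may have several, and a minus sign marks the upstream side. RefSeq positions are of GRCm38.p6, the assembly of mm10.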

Additional observations from a re-analysis of the deposited data

Results flagged for a closer look

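In 14 of 216 groups of 4 libraries at the named peaks, 1 library lay far from the other 3 by Dixon's test at the 95% level. Chance flags about 1 group in 20. At Itgax these were KO IL4 replicate 1 at the -25.5 kb peak (2.69 CPM, the others 1.33 to 1.44), KO vehicle replicate 2 at -24.2 kb (0.213, the others 0.916 to 0.995), KO Dex replicate 1 at -19.0 kb (1.49, the others 2.52 to 2.68) and KO IL4 replicate 3 at -14.0 kb (5.75, the others 4.99 to 5.08). At -13.5 kb KO Dex replicate 1 was low (0.398, the others 0.825 to 0.865) and WT vehicle replicate 2 was high (1.34, the others 0.618 to 0.691). WT Dex replicate 2 was high at -10.5 kb (2.22, the others 1.13 to 1.23), KO vehicle replicate 1 was high at +7.7 kb (8.08, the others 4.58 to 4.90) and WT vehicle replicate 1 was low at +10.2 kb (2.53, the others 3.61 to 3.74).

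Among the other genes, Itga4 at -61.4 kb was low in KO IL4 replicate 1 (3.64 CPM, the others 5.32 to 5.57), and Itga6 at its promoter was high in KO IL4 replicate 1 (24.1, the others 19.1 to 19.6). Itgam at -11.7 kb was high in WT vehicle replicate 3 (58.8, the others 46.9 to 48.9). Itgb1 at -79.9 kb was low in KO Dex replicate 1 (6.27, the others 7.76 to 7.91), and Itgb2 at -10.8 kb was low in WT IL4 replicate 1 (40.7, the others 48.1 to 48.8).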

How the results depend on the processing

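Every alternative kept the Itgax rises at the -7.7 kb, promoter and +7.7 kb peaks called, in both genotypes. Counts of called member peaks stayed within 1.5 times the main count under every alternative that used all libraries, except KO against WT with IL4, where 1 became 2 without a filter on low counts and 2 with a replicate block. Leaving out each library in turn gave 38 to 43 calls for IL4 in WT, 28 to 40 in KO, 18 to 26 for Dex in WT, 16 to 19 in KO, 62 to 67 for IL4 against Dex in WT, 0 to 2 for KO against WT with IL4, 0 to 1 with Dex and 0 with vehicle, and 0 for both interactions. With IL4 the count for KO against WT was 2 without KO IL4 replicate 1 or 2 or WT IL4 replicate 3 and 0 without WT IL4 replicate 1, and with Dex it was 1 without WT Dex replicate 2, 3 or 4. Loess offsets turned the sign in 6 cases that were called with or without them, all at promoter peaks: for IL4 against Dex in WT it became 0.29 at Itga4 and 0.01 at Itgam, Itgav and Itgb1, for IL4 against vehicle it became 0.16 at Itgam in KO and 0.00 at Itgb1 in WT. The cause was not tested. Deviations from the group means of same-numbered libraries correlated by 0.00337 to 0.145 within KO, by 0.0511 to 0.202 within WT and by -0.0673 to 0.0268 between KO and WT, above 0.1 in 9 of 60 pairs and in none of 180 pairs of different number, and 23 of 24 libraries correlated best with their own number, a hint from the data and not the design. The replicate block gave libraries of the same number a common term across both genotypes. It therefore did not model a pairing within each genotype. With this block 47 member peaks were called for IL4 in WT and 41 in KO, 28 for Dex in WT and 19 in KO. Depth limits peaks under about 1 CPM, such as Itgal at -3.0 kb and Itga4 at -185.9 kb, which held as few as 2 reads in a library.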

Other observations

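The Itga4 peak at -49.0 kb, chr2:79206151-79206770, picked out after values were seen, varied within the KO groups more than between treatments. Replicates 1, 2, 3 and 4 had 0.288, 3.17, 0.885 and 2.50 CPM in KO IL4, 1.09, 3.92, 0.315 and 3.26 CPM in KO Dex and 0.497, 2.55, 0.131 and 2.11 CPM in KO vehicle. The WT libraries had 6.28, 5.79, 6.22 and 5.59 CPM with IL4, 4.08, 6.46, 4.84 and 4.29 CPM with Dex and 3.84, 4.81, 4.81 and 4.02 CPM with vehicle. In KO, replicates 1 and 3 were low and replicates 2 and 4 higher under all 3 treatments. Within each treatment every KO library lay below every WT library. The difference between KO and WT was not called with IL4 (log2 -1.72 ± 0.49 SE, adjusted p = 0.152), with Dex (-1.01 ± 0.47 SE, adjusted p = 0.478) or with vehicle (-1.48 ± 0.57 SE, adjusted p = 0.418).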
